A study of Mus musculus with 29 samples.

Results

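MdC6 is 1 of 6 subtypes into which the depositors divided the monocyte-derived cells (code MdC) of the mouse brain after stroke. Its members were taken as every brain cell whose deposited coarse code is MdC and whose deposited fine code is MdC6. The rule found 1217 cells, of 12553 monocyte-derived cells, 55268 brain cells and 106977 cells in all libraries. Of these, 985 came from young mice at day 14 after stroke, 201 from young mice at day 2 after stroke and 1 from young mice at day 2 after sham surgery. Aged mice gave 13 cells at day 14 after stroke, 15 at day 2 after stroke and 2 at day 2 after sham surgery. The other subtypes held 2947 (MdC1), 2805 (MdC2), 2078 (MdC3), 2039 (MdC4) and 1467 (MdC5) cells.

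Single cells were profiled by Drop-seq, which captures cells in droplets with barcoded beads and counts transcript molecules per cell, in C57BL/6J mice after transient occlusion of the middle cerebral artery or sham surgery. The young brain groups were males of 8 to 10 weeks, with 4 libraries each of sham at day 2, stroke at day 2 and stroke at day 14. The aged mice were of 17 to 20 months and gave 1 male and 1 female library after sham surgery (day 2), 1 male and 2 female libraries from day 2 after stroke, and a single female library from day 14. Each brain library pooled 4 to 5 hemispheres, from which leukocytes with high CD45, microglia and endothelial cells had been sorted, so shares of all cells also reflect the sort. No sham library was taken at day 14. The 11 blood libraries came from young males, 2 mice pooled in each. Libraries are numbered here by the replicate number of their label.

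After a stroke, monocytes leave the blood, enter the injured tissue and become macrophages there. On this path they are known to lose genes of the circulating cell, such as the chemokine receptor Ccr2 and the surface protein Ly6c2, and to take up debris and myelin lipid, which they digest in lysosomes. Macrophages loaded with lipid turn on a group of genes that depends in part on the lipid receptor Trem2 and includes Apoe, Gpnmb and Spp1. Igf1, the marker given for MdC6, encodes insulin-like growth factor 1, a secreted growth factor that signals through the receptor Igf1r on other cells.

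Lysosomal genes can be driven by transcription factors of the MiT/TFE family, among them Mitf and Tfeb, which bind the letters TCACGTG or TCATGTG. The 250 bases before the start of each of the 15 genes that lead MdC6 were searched for both motifs on both strands in the RefSeq promoter table of GRCm38.p6, in which 13 of the 15 were found. Only the first start listed for each gene was read, also for the promoters printed below, and any other start was not searched. TCACGTG, or CACGTGA on the other strand, was present in 2 of the 13, against 852 of all 27025 promoters read in this way (3.15%). The other motif was present in 0 of 13, against 3.22% of all promoters. Among the 10 genes lowest in MdC6, 8 were found in the table and 0 of the 8 held either motif. The promoters of Ctsd and Hebp1 are printed because they hold the motif, and that of Igf1 because it is the marker of the subtype; capitals mark the motif on either strand, and each is written 5′ to 3′ along the gene's strand.
Ctsd, chr7:142387828-142388077, minus strand: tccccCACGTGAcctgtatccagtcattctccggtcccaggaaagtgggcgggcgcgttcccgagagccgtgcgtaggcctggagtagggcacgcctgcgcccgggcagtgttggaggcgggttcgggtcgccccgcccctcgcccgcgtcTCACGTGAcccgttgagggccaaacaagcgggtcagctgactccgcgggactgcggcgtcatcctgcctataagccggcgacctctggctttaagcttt
Hebp1, chr6:135168216-135168465, minus strand: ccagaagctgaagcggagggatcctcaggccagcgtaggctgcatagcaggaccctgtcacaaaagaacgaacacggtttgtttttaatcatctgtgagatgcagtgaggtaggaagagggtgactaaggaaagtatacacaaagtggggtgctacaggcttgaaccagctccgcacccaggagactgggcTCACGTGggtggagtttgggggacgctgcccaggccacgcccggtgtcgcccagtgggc
Igf1, chr10:87860861-87861110, plus strand: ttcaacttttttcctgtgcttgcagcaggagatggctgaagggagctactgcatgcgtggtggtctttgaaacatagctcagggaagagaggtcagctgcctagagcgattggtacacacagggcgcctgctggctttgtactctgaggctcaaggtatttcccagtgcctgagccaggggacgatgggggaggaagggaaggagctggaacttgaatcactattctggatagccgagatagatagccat
In the promoter of Ctsd, which encodes the lysosomal protease cathepsin D, the motif begins at positions -245 and -99 relative to the start, and the site at -99 reads on both strands. In that of Hebp1, which encodes a haem-binding protein, it begins at position -59. A match of letters is a description of the sequence and was not tested as a binding site.

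The deposited labels were checked before the values were read. In MdC6 at day 14 the 14 monocyte markers summed to 30100 to 56110 CPM, a gene's counts per 1e6 counts of those cells in a library. Most of that sum was the lysozyme gene Lyz2, at 28160 to 53510 CPM in MdC6 and 2657 to 3289 CPM in the microglial subtype Mg3. Ms4a7, a gene of macrophages that do not derive from microglia, stood at 1191 to 2294 CPM in MdC6 and 41.2 to 69.4 CPM in Mg3. The mannose receptor Mrc1, which defines border-associated macrophages, was at 6.06 to 37.7 CPM in MdC6. Of the other marker lists, T cell markers summed to 55.6 to 86.4 CPM, neutrophil markers to 84.7 to 221 CPM and dendritic markers to 13.9 to 60.9 CPM in MdC6. The 12 microglial markers summed to more, 475 to 3516 CPM, which is 2.75% to 21.2% of their sum in the microglia of the same library, and the 10 border macrophage markers to 1980 to 3279 CPM, against 7480 to 14520 CPM in border-associated macrophages. The label of a monocyte-derived cell was kept, on the levels of Lyz2 and Ms4a7 against Mg3 at day 14. Ms4a7 did not separate MdC6 from border-associated macrophages (mean log2 ratio -0.07, mixed in sign). In MdC6 of day 2 replicates 1 to 3, Ms4a7 was at 1228, 755 and 1089 CPM and the microglial markers summed to 5185, 1587 and 681 CPM. Of those cells, 5 of 20, 13 of 127 and 0 of 49 were among the 5% of their library with the highest doublet scores.

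MdC6 cells of day 14 carried more counts than the other monocyte-derived cells of the same library, with medians of 2697, 1044, 2110 and 494 against 1499, 888, 1255 and 385. At day 2 the order was the opposite in replicates 1 to 3, with medians of 445, 637 and 761 against 1222, 683 and 1311. Brain libraries held 819438 to 5855047 counts over 1143 to 5121 cells. The young brain libraries fell into a set low in mitochondrial ribosomal RNA (7.16 to 535 CPM; sham replicate 1 and replicates 1 and 2 of both stroke groups) and a set high in it (14570 to 32560 CPM; the other 7), and values within each set are given beside the results they touch. Between all 153 pairs of brain libraries 98 cell barcodes recurred, at most 3 in a pair, and 6 of them marked an MdC6 cell.

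MdC6 was the most frequent subtype of monocyte-derived cells in every young library of day 14 and rare at day 2. The share of MdC6 among monocyte-derived cells was 34.4%, 33.5%, 35.5% and 32.6% in the 4 libraries of day 14 after stroke. It was 1.03%, 7.75%, 2.25% and 0.341% in the 4 libraries of day 2 after stroke. Among sham libraries it was 2.33% in replicate 4, which is 1 of 43 cells, and 0% in the other three, where 0 cells allow shares of up to 3.03%, 3.19% and 3.66%. All day 14 libraries lay above all day 2 libraries, and the sham and stroke libraries of day 2 overlapped. The mean was 34.0% ± 1.25 (SD, n = 4) at day 14 and 2.84% ± 3.37 (SD, n = 4) at day 2 after stroke, a difference of 31.2 percentage points (exact two-sided permutation test, p = 0.0286, the smallest that 4 against 4 libraries can give, adjusted p = 0.0429 over 3 comparisons). Day 14 exceeded sham by 33.4 points (exact permutation test, adjusted p = 0.0429). Day 2 after stroke exceeded sham by 2.26 points, which did not pass the exact permutation test (p = 0.2). As a share of all cells the difference was 1.47 points and passed (exact permutation test, adjusted p = 0.0286). That share also follows the number of monocyte-derived cells, which was 43 to 99 in sham libraries and 1468 to 2180 at day 2 after stroke. Among cells of at least 800 counts the difference was 2.49 points and passed (exact permutation test, adjusted p = 0.0286). Sham libraries then held 66, 25, 9 and 4 monocyte-derived cells, so their shares of 0 rest on few cells.

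**Figure D1:**
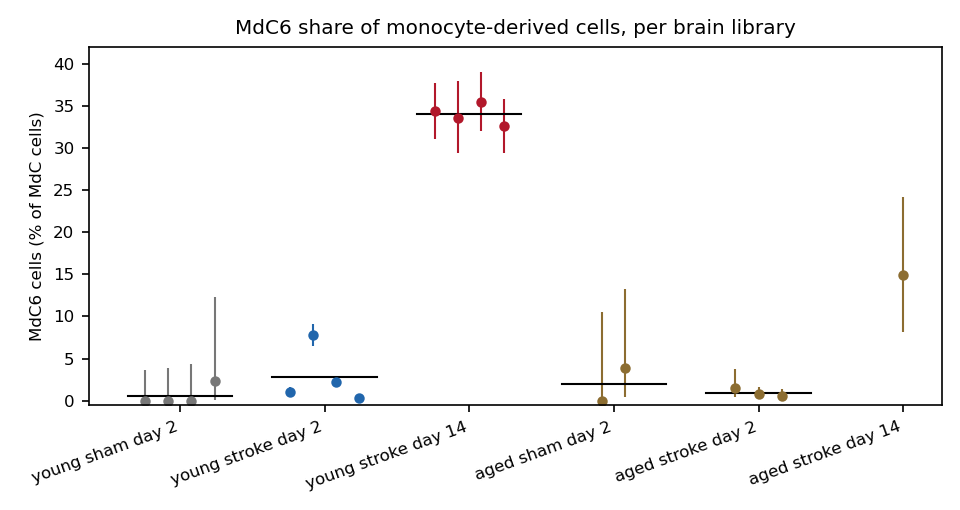
MdC6 cells as a percent of monocyte-derived cells (vertical axis) in each of the 18 brain libraries by group (horizontal axis); points are libraries, vertical bars their exact 95% binomial intervals and black lines the means of groups with more than 1 library. The 4 young libraries of day 14 lie between 32.6% and 35.5%, and every other library lies below them, the nearest being the single aged library of day 14 at 14.9%.

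In cells of at least 800 counts the MdC6 share at day 14 was 36.4%, 35.2%, 37.2% and 52.7%, so that the shallowest library, replicate 4, stood above the others, with 69 of 131 cells against 32.6% of all its monocyte-derived cells. In the set low in that RNA the mean share was 34.0% in the 2 libraries of day 14 and 4.39% in the 2 of day 2. In the set high in it the means were 34.0% and 1.29%. As a share of leukocytes other than microglia, MdC6 made up 15.3% ± 3.61 (SD, n = 4) at day 14, and as a share of all cells 7.72% ± 2.23 (SD, n = 4). In a count model over the 6 subtypes (edgeR quasi-likelihood), MdC6 was higher at day 14 than at day 2 by 3.58 ± 0.68 (SE) on the log2 scale with adjusted p = 2.6e-04, and by 4.21 with the replicate number as a block (edgeR, adjusted p = 6.8e-06). The subtypes beside it at day 14 were MdC4 with 24.8% ± 3.47 (SD, n = 4), MdC5 with 22.6% ± 1.43 and MdC3 with 12.99% ± 5.22. At day 2 MdC1 and MdC2 led instead, with 31.5% ± 3.39 and 28.9% ± 2.26, and their means at day 14 were 1.91% and 3.73%. Intervals, floors and shares cover counting error only.

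The genes that set MdC6 apart from the other monocyte-derived cells were described, not tested, because the depositors formed the subtypes from the expression of the same cells. For each library of day 14 the counts of MdC6 and of all other monocyte-derived cells were summed, and the log2 ratio of CPM + 10 was taken. Of 5739 genes whose mean reached 20 CPM, 130 (2.27%) were higher in MdC6 by a mean log2 ratio of at least 1 with the same sign in all 4 libraries, and 362 (6.31%) were lower. The median over all 5739 genes was -0.09, and with a pseudocount of 50 CPM in place of 10 the counts were 42 and 151.

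Among secreted proteins, Igf1 stood at 497, 282, 382 and 365 CPM in MdC6 and at 26.09, 11.04, 52.05 and 21.59 CPM in the other monocyte-derived cells of the same libraries. The lowest MdC6 library lay above the highest of the other cells, and the mean log2 ratio was 3.46 ± 0.54 (SD, n = 4). Spp1, which encodes osteopontin, a secreted protein that binds integrins, stood at 23990, 22760, 43000 and 23970 CPM in MdC6 against 2835, 3765, 7120 and 1877 CPM, a mean log2 ratio of 2.98 ± 0.51 (SD, n = 4). Csf1, the growth factor that macrophages and microglia need to survive, was at 201, 133, 155 and 145 CPM against 47.0, 9.75, 37.8 and 20.4 CPM. For each of these secreted factors the MdC6 libraries and the others did not overlap. Gpx3, an extracellular enzyme that reduces peroxides, had a mean log2 ratio of 2.30, and Timp2, an inhibitor of matrix metalloproteases, one of 2.49.

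Gpnmb, a transmembrane glycoprotein of lysosomes and melanosomes, was at 4117, 3102, 4500 and 3755 CPM in MdC6 and at 475, 434, 437 and 256 CPM in the other monocyte-derived cells. Atp6v0d2, a subunit of the vacuolar proton pump known from osteoclasts and lipid-laden macrophages, was at 161, 32.5, 178 and 227 CPM against 0, 0, 18.1 and 3.44 CPM. MdC6 was the higher in every library for both genes, with mean log2 ratios of 3.26 and 3.27; the ratio of Atp6v0d2 rests on few counts in the other cells (13.5 of 2200346). Ctsd, the protease whose promoter is printed above, was at 7737, 6639, 11410 and 3780 CPM against 1902, 1845, 2748 and 833 CPM. Pld3, a lysosomal nuclease, had a mean log2 ratio of 2.28, and Cd63, a tetraspanin of late endosomes whose reads a pseudogene could share, one of 2.19.

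Trem2, the receptor for lipids and lipoproteins, was at 1562, 1228, 1569 and 774 CPM in MdC6 and at 417, 392, 347 and 135 CPM in the other monocyte-derived cells, a mean log2 ratio of 2.02. Apoe, the main lipid carrier of the brain, was at 92920, 90810, 79510 and 75460 CPM against 22210, 22760, 24320 and 15380 CPM. The groups did not overlap for either gene, and Apoe was 2.02 higher on the log2 scale. Fabp5, a carrier of fatty acids inside the cell, was at 2171, 2340, 3283 and 2152 CPM against 543, 655, 541 and 362 CPM. The remaining genes of the leading 15 were Syngr1, a vesicle protein (mean log2 ratio 2.58), Hebp1 (2.46) and Fblim1, an adaptor of cell adhesion (2.12).

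**Figure D2:**
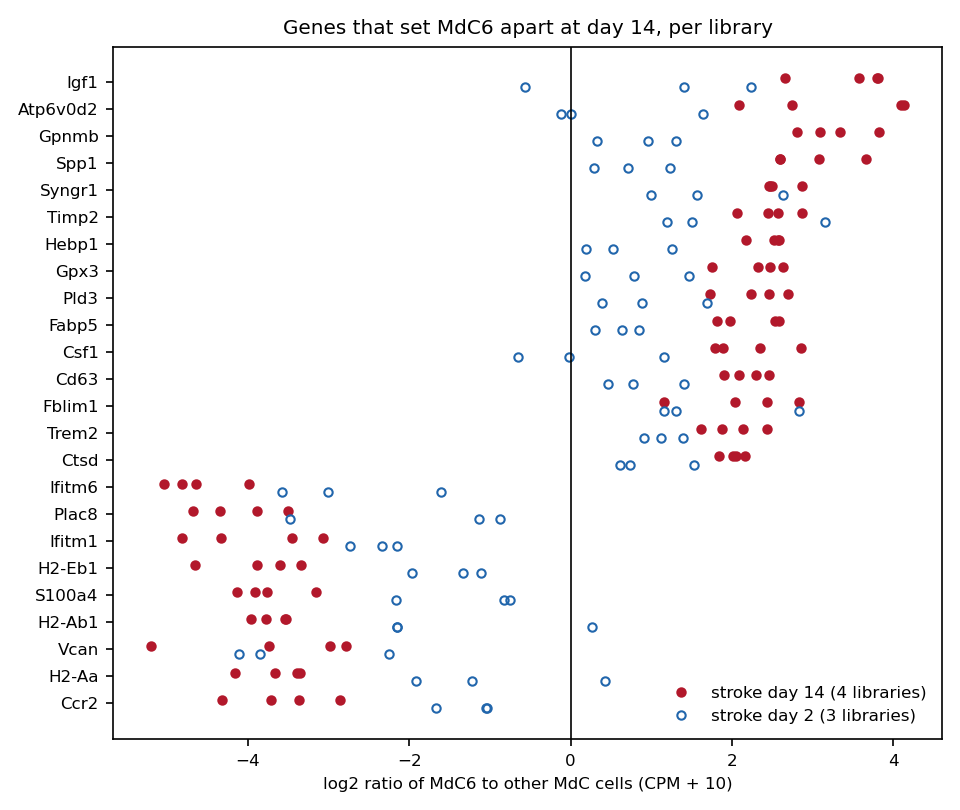
Log2 ratio of MdC6 to the other monocyte-derived cells of the same library (horizontal axis, CPM + 10) for the 15 genes highest and 9 of the 10 lowest in MdC6 at day 14 (vertical axis); filled points are the 4 libraries of day 14 and open points the 3 libraries of day 2 with at least 20 MdC6 cells. Filled points lie past 1 or -1 for all 24 genes drawn, by the rule that chose them, while most open points lie nearer to 0, with Igf1, Atp6v0d2, Csf1, H2-Ab1 and H2-Aa on no constant side.

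Read by list, genes of lipid handling and of the lysosome that passed the fold were nearly all higher in MdC6. Among all genes, 2.27% were higher past the fold and 6.31% lower. Of 24 genes of the TREM2-dependent and disease-associated list, 13 were higher past the fold and 2, the chemokine Ccl6 and the surface glycoprotein gene Cd52, were lower, with a list median of 1.58. Of 22 lipid genes, 9 were higher, among them Apoe, Apoc1 (196 against 91.5 CPM), the lysosomal lipase Lipa (564 against 278 CPM) and the fatty acid carriers Fabp3 and Fabp4, and 1 was lower. The scavenger receptor Cd36, which takes up oxidised lipid, was at 47.6, 61.7, 41.4 and 96.8 CPM in MdC6 against 21.5, 25.5, 16.7 and 16.9 CPM. Plin2, which coats lipid droplets, was at 514 and 477 CPM and differed little. Of 30 lysosomal genes, 8 were higher and 0 lower, led beside those above by the protease Ctsb (13350 against 4055 CPM) and the hydrolase subunit Hexa (867 against 355 CPM).

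Of 12 complement genes, 3 were higher past the fold, the subunits C1qa, C1qb and C1qc of the initiating complex, and 1, the stabilising factor Cfp, was lower. Microglia hold more of these subunits, with C1qa at 8153 CPM in Mg3 against 2224 CPM in MdC6 and 645 CPM in the other monocyte-derived cells. The 12 microglial markers moved with them, at 3516, 2782, 2480 and 475 CPM in MdC6 against 1127, 880, 787 and 175 CPM, and their part in the result was not tested. C1qc was at 2990, 2125, 3281 and 1337 CPM in MdC6 and at 627, 604, 988 and 340 CPM in the other monocyte-derived cells, lowest in replicate 4 in both. Of 15 clearance genes, 2 were higher: Cd36 and Mertk, a receptor for dying cells, the latter at 148 against 51.3 CPM. Of 13 growth factors and secreted signals, 5 were higher (Vegfb, Spp1, Csf1, Nrp1 and Tnfsf8) and 1, the matrix protein Tgfbi, was lower, with a median of 1.00. Of the IGF pathway only Igf1 and the insulin receptor substrate Irs2 reached the level needed, and Irs2, at 70.5 against 40.7 CPM, did not pass the fold. The receptor Igf1r was at 1.62 CPM in MdC6 and 839 ± 219 CPM (SD, n = 4) in endothelial cells. Of 37 macrophage transcription factors, 1 was higher, the repressor Bhlhe41 (52.8 against 6.10 CPM), and 9 were lower, among them Cebpb (413 against 1336 CPM), Klf4 and Nr4a1. Over all genes 2.27% were higher and 6.31% lower, so the single higher factor of 37 is near the background.

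The lower genes included most of the classical monocyte list. Plac8, a small protein of blood monocytes, was at 127, 227, 299 and 287 CPM in MdC6 and at 3496, 2678, 6262 and 4391 CPM in the other monocyte-derived cells, a mean log2 ratio of -4.10 ± 0.51 (SD, n = 4). Ccr2, the receptor through which monocytes are drawn into tissue, was at 84.4, 151, 194 and 448 CPM against 1878, 2092, 2099 and 3311 CPM. The calcium-binding protein S100a4 was at 46.0, 77.7, 94.7 and 95.3 CPM against 974, 771, 1565 and 1421 CPM. No MdC6 library reached the lowest of the other cells for any of these 3 genes. Of 18 classical monocyte genes, 15 were lower and 0 higher, with a median of -2.08, where 6.31% of all genes were lower and 2.27% higher. The named ones include Ifitm6 (-4.62) and the matrix proteoglycan Vcan (-3.68). Both sizes depend on the pseudocount: with 1 and 50 CPM in place of 10 they were -5.65 and -3.18 for Ifitm6, and -6.64 and -1.81 for Vcan. Ly6c2 was lower but present, at 828 against 3254 CPM, and Lyz2 was 38730 against 25340 CPM and did not pass the fold.

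Of 10 MHC class II genes, 8 were lower in MdC6 and 0 higher, with a median of -1.81. H2-Ab1, the beta chain of the class II molecule I-A, was at 316, 232, 456 and 334 CPM in MdC6 and at 3787, 3759, 5357 and 4701 CPM in the other monocyte-derived cells. Its invariant chain Cd74 was at 933 against 8159 CPM, and Ciita, the master regulator of the class II genes, at 3.54 against 41.9 CPM. Of 18 interferon response genes, 13 were lower and 0 higher, with a median of -1.40, among them Rsad2 (164 against 941 CPM) and the chemokine Cxcl10 (115 against 912 CPM). Of 20 inflammatory cytokines and chemokines, 6 were lower, led by Ccl9 (142 against 1013 CPM) and Il1b (1572 against 6826 CPM), and 0 were higher. Of 5 proliferation genes that reached the level needed, 0 were higher and 1, Cenpa, was lower; of 18 glycolysis and hypoxia genes 0 were higher and 2 were lower. Beside the 2.27% of all genes that were higher and 6.31% that were lower, these last 2 lists are near the background. These lists overlap in members such as Apoe, Spp1 and Chil3.

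At day 2 the same contrast could be read in the 3 libraries with at least 20 MdC6 cells. Of the 15 leading genes, 12 kept their sign in all 3 libraries and 4 of these were past the fold, with a median log2 ratio of 0.88 against 2.30 at day 14. The 3 exceptions were Igf1, Atp6v0d2 and Csf1. Of the 10 lowest genes, 8 kept their sign and all 8 of these were past the fold. The median of the 10 was -1.65 against -3.73 at day 14, and the exceptions in sign were H2-Ab1 and H2-Aa. For all 25 genes the mean ratio was smaller in size at day 2 than at day 14. The cells that MdC6 was set against were of a different mix on the 2 days. Over the 4 libraries of each day, MdC1 made up a mean of 31.5% of monocyte-derived cells at day 2 and 1.91% at day 14. MdC2 made up 28.9% and 3.73%. The smaller ratios can therefore not be read as a property of MdC6 alone, and the part of the changed mix was not tested. The 25 genes were chosen for their size at day 14, and the 3 libraries of day 2 held 20, 127 and 49 MdC6 cells.

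Igf1 was concentrated in MdC6 within the monocyte-derived cells. At day 14 MdC6 held 429 of 452 Igf1 counts of monocyte-derived cells in replicate 1 (94.9%, 95% exact interval 92.5 to 96.8), 64 of 68 in replicate 2 (94.1%, 85.6 to 98.4), 234 of 270 in replicate 3 (86.7%, 82.0 to 90.5) and 63 of 68 in replicate 4 (92.7%, 83.7 to 97.6). MdC6 held 49.5%, 39.1%, 46.9% and 38.7% of all counts of these cells. The share of Igf1 was therefore above the share of all counts in each library. Of the Igf1 counts of the whole library MdC6 held 31.6%, 15.3%, 17.0% and 10.2%, and microglia 64.6%, 83.1%, 79.0% and 87.5%.

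The deposited counts are fractional and include entries close to 0, so a cell was taken to hold Igf1 from a value of 0.5. By that rule 50.4%, 22.6%, 39.9% and 19.0% of MdC6 cells held Igf1 at day 14, and 1.71%, 0.923%, 5.38% and 1.38% of the other monocyte-derived cells. Of T cells, a type not known for Igf1, 0 of 50, 1 of 256, 0 of 191 and 0 of 356 held it, where 0 cells allow shares of up to 6.00%, 1.57% and 0.843%; their median depths were 1055, 680, 890 and 359 counts. MdC6 lay above both other groups in each library. With any entry above 0, the T cell shares were 2.00%, 0.781%, 3.14% and 0.281%, and those of MdC6 50.4%, 23.2%, 43.6% and 24.0%. After each cell was thinned to 500 counts, and shallower cells were left out, the shares were 17.4%, 9.09%, 16% and 17.3% in MdC6 (264, 110, 250 and 150 cells kept), 0.813%, 0.427%, 2.03% and 2.24% in the others (492, 234, 443 and 223 kept) and 0% in the T cells of each library (47, 168, 162 and 102 kept).

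Among the monocyte-derived and microglial subtypes and border-associated macrophages, the mean Igf1 level at day 14 was highest in the microglial subtypes Mg7 (587 ± 177 CPM, SD, n = 4) and Mg3 (501 ± 156, n = 4), followed by MdC6 (382 ± 88.2, n = 4). Mg5 (303 CPM, n = 2), border-associated macrophages (200 ± 50.4, n = 4), Mg4 (143 CPM, 1 library) and Mg6 (105 CPM, n = 2) came next. The ranges of MdC6 overlapped those of Mg7 (438 to 835 CPM) and Mg3 (282 to 497 CPM in MdC6 and 336 to 711 CPM in Mg3), and those of MdC6 and border-associated macrophages did not (136 to 242 CPM in the latter). Of the other monocyte-derived subtypes, MdC2 had 80.8 CPM (0 to 213, n = 3), MdC4 28.9, MdC3 25.8 and MdC5 16.6 CPM (each n = 4), with overlapping ranges. The microglial subtypes Mg1 (34.2 CPM, n = 3) and Mg2 (17.38 CPM, 1 library) lay among them. MdC1 was at 0 in replicate 1, the only library with at least 20 of its cells. By the rule above for single cells, 0 of 27, 0 of 4, 5 of 19 and 0 of 8 MdC1 cells held Igf1 in replicates 1 to 4. In MdC6 the numbers were 139 of 276, 37 of 164, 106 of 266 and 53 of 279. The level of Igf1 in MdC1 therefore rests on few cells and differed between libraries. At day 2 MdC6 was at 0, 49.95 and 19.55 CPM, from 6.51 counts in all, and the other monocyte-derived subtypes had means of 0.205 to 5.39 CPM. Border-associated macrophages were at 218 ± 124 CPM (SD, n = 4) already at day 2.

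**Figure D3:**
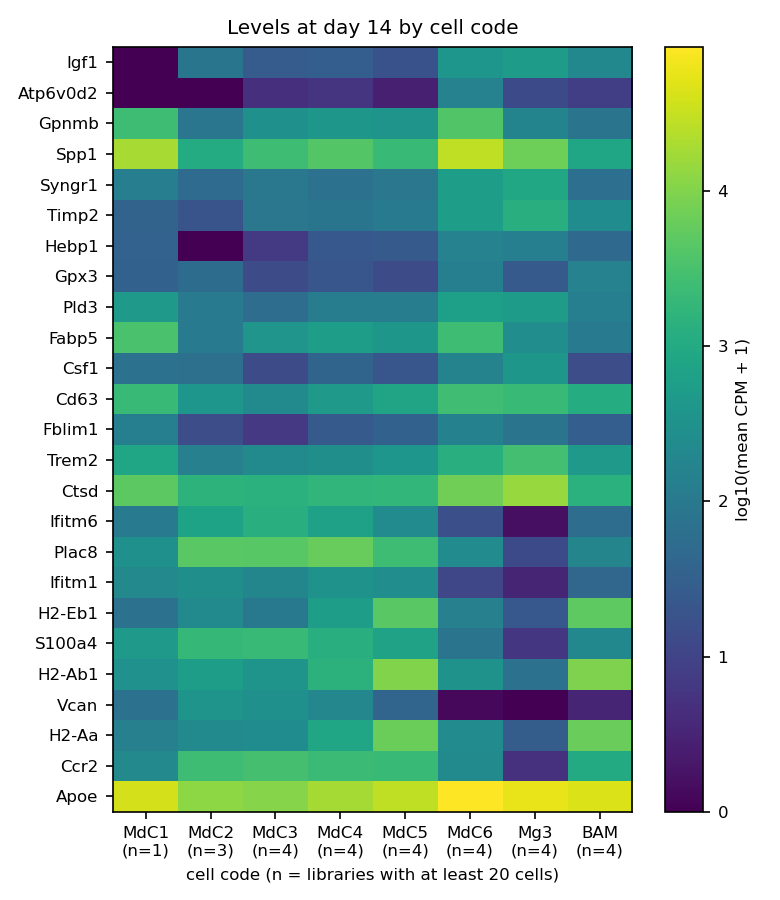
Mean CPM at day 14 on a log10 scale of CPM + 1 (colour) of 24 of the 25 named genes and Apoe (vertical axis) in the 6 monocyte-derived subtypes, the microglial subtype Mg3 and border-associated macrophages (horizontal axis, with the number of libraries of at least 20 cells). MdC6 shares high Igf1 with Mg3 (382 and 501 CPM) and stands above it for Gpnmb (3868 against 167 CPM), while its class II genes are below those of MdC5 and border-associated macrophages.

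Microglia also carry Igf1, so their markers were read beside it. The 12 microglial markers summed to 3516, 2782, 2480 and 475 CPM in MdC6 at day 14, to 1127, 880, 787 and 175 CPM in the other monocyte-derived cells and to 16600, 16420, 21090 and 17270 CPM in microglia. MdC6 thus stood at 21.2%, 16.9%, 11.8% and 2.75% of the microglial sum, and the number of the 12 markers at 0 in MdC6 was 0, 2, 6 and 10. In replicate 4 the microglial markers Tmem119 and P2ry12 were at 0 and Fcrls at 5.81 CPM in MdC6, while Igf1 was at 365 CPM there and at 361 CPM in the microglia of that library. In replicate 1 Fcrls was at 572 CPM in MdC6 and 1911 CPM in Mg3. The values at 0 are not all absent reads: 18 MdC6 cells of replicate 4 have a Tmem119 entry above 0 and 13 a P2ry12 entry, each below 0.001. With every entry above 0 rounded up to a whole count, an alternative added after the data were seen, the microglial sum in MdC6 was 3708, 3021, 2799 and 1671 CPM, or 22.7%, 18.9%, 14.2% and 10.4% of that in microglia, with 0, 2, 0 and 2 markers at 0. Igf1 in MdC6 was then 507, 294, 411 and 434 CPM, against 404, 328, 686 and 347 CPM in microglia. In day 2 replicate 3 the microglia themselves summed to 820 CPM, with 6 of the 12 markers at 0. The part of microglial RNA in the Igf1 level of MdC6 was not tested.

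**Figure D4:**
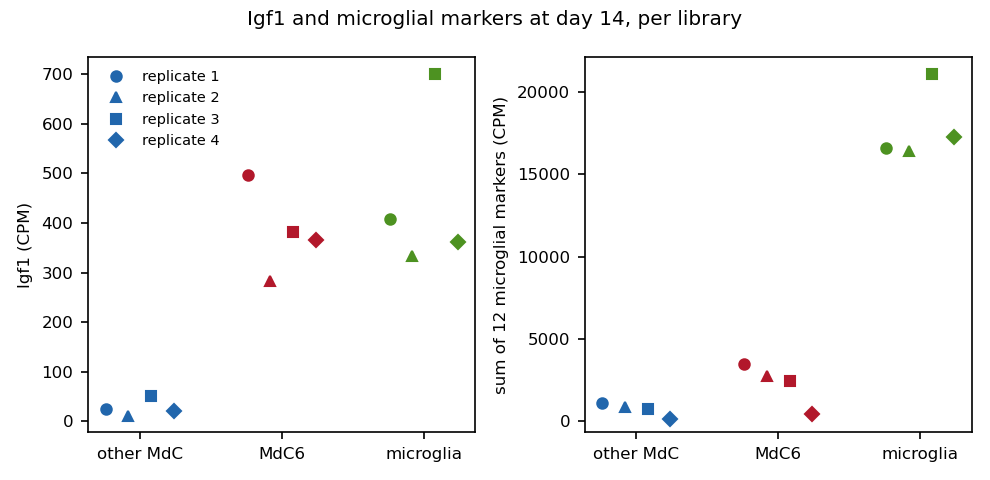
Igf1 (left, CPM) and the sum of 12 microglial markers (right, CPM) at day 14 in the other monocyte-derived cells, MdC6 and microglia (horizontal axis); each symbol is 1 replicate. Igf1 of MdC6 lies at 282 to 497 CPM, within or near the microglial range of 333 to 700 CPM, while its microglial markers lie at 475 to 3516 CPM, below the 16420 CPM of the lowest microglial library.

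Genes with the level pattern most like Igf1 were sought by Spearman correlation over 43 sums of 6 subtypes in 8 stroke libraries, of which 15 had no Igf1. The nearest were Csf1 (0.713), the selenium carrier Selenop (0.702), the transcription factor Mitf (0.671), Chchd10 (0.660) and Abi3 (0.650), with Rcan1, Fkbp15 and Apoe following. The sums share libraries and their depth differs, so the values are descriptive. Whole profiles were compared over the 5539 genes of at least 20 CPM in MdC6 at day 14, so genes low in MdC6 did not enter. Among the subtypes, MdC5 had the highest Spearman correlation with MdC6 (0.880, 51 genes at least 4-fold apart), followed by MdC4 (0.838, 123 genes). Their pools held 649 and 716 cells, against 380 in MdC3, 110 in MdC2 and 58 in MdC1. Smaller pools give noisier values, so the order may also depend on pool size. Outside the monocyte-derived cells, Mg3 (0.793, 173 genes), Mg7 (0.783, 163 genes) and the border-associated subtype BAM2 (0.766, 168 genes) had the highest correlations; by genes at least 4-fold apart, Mg7 and BAM2 were nearer than Mg3.

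Against MdC5, the subtype of the highest correlation, MdC6 was higher in all 15 leading genes in every library and lower in all 10 others. It was higher by 3.86 for Igf1 and 3.74 for Spp1. The largest differences against MdC5 lay in MHC class II, with H2-Eb1 at -5.04 and H2-Ab1 at -4.84. Against MdC4 the largest lay in Ifitm6 (-4.76) and Plac8 (-4.63). Against Mg3, 8 of the 15 leading genes were higher in MdC6 in every library, 5 were lower and 2 were mixed. Of the 10 lowest genes, 8 were higher in MdC6 than in Mg3 in every library and 2 were mixed. Gpnmb (4.48), Fabp5 (3.18), Atp6v0d2 (2.68) and Spp1 (2.18) were above the microglial level, and Timp2 (-1.25), Trem2 (-1.22), Csf1 (-1.21), Ctsd (-1.04) and Syngr1 (-0.65) below it. The cystatin gene Cst7, a marker of reactive microglia, was lower in MdC6 by 5.71 and C1qa by 1.94 on the log2 scale. Against border-associated macrophages 14 of 15 leading genes were higher, Gpx3 being mixed. Of the 10 lowest genes, 5 were lower in MdC6, among them H2-Eb1 (-5.13), and 5 were mixed. Among the subtypes, MdC1 at day 14, with 27 cells in 1 library, also held Spp1 (19550 CPM) and Gpnmb (2478 CPM). All these are descriptions, as the codes were formed on these genes.

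Within MdC6, cells of day 14 were compared with cells of day 2 by edgeR (quasi-likelihood test on counts summed per library, 4 libraries against 3; day 2 replicate 4 had 5 cells and did not enter). Of 2933 genes tested, 3 were called at an adjusted p under 0.05 (0.102%), and 196 had an unadjusted p under that value; 2 of the 3 were higher at day 14 (0.0682%) and 1 lower (0.0341%), against 2 of 6 without TMM scaling and 9 of 17 by DESeq2. Igf1 was higher at day 14 by 3.52 ± 0.50 (SE) on the log2 scale (edgeR, adjusted p = 0.028), from 0, 49.95 and 19.55 CPM at day 2. With 6.51 counts in all at day 2, Igf1 passed the low-count filter through its day 14 libraries. Its p-value is therefore not read as support. Apoe was higher by 1.97 ± 0.25 (SE) (edgeR, adjusted p = 0.028), from 26440, 32330 and 22030 CPM at day 2. S100a4 fell by 3.31 on the log2 scale (SE 0.46; edgeR, adjusted p = 0.028), from 434, 690 and 1540 CPM at day 2. For each of the 3 genes the libraries of the 2 days did not overlap, which the rule for naming genes between days required. Leaving out any 1 of the 7 libraries left 0 or 1 called genes, with Igf1 and S100a4 called in none of these fits and Apoe in that without day 2 replicate 2 and that without day 14 replicate 4. Without the cells of the highest doublet scores, day 2 replicate 1 fell under 20 cells, S100a4 alone was called, and Igf1 and Apoe had adjusted p of 0.14 each (edgeR, 4 libraries against 2).

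Libraries with the same replicate number deviated from their group means together, though day 14 replicate 1 correlated more with day 2 replicate 2 than with its own number (0.238 against 0.132 in MdC6). The same-numbered stroke libraries also fall in the same set of mitochondrial ribosomal RNA. With the replicate number as a block, 68 genes were called in MdC6 (2.32%), 49 higher (1.67%) and 19 lower (0.648%) at day 14. Day 2 replicate 4 did not enter, so day 14 replicate 4 has no partner, and the blocked difference in MdC6 rests on replicates 1 to 3. Gpnmb rose by 2.32 on the log2 scale (edgeR with the block, adjusted p = 8.6e-08), from 1124, 1364 and 520 CPM at day 2. Spp1 rose by 1.67 (edgeR, adjusted p = 0.00117) from 9860, 20930 and 7193 CPM, and Trem2 by 1.13 (edgeR, adjusted p = 0.0301) from 930, 684 and 910 CPM. The libraries of the 2 days did not overlap for Gpnmb and Spp1, and they did for Trem2. Without the block these genes had adjusted p of 0.089, 0.44 and 0.60 (edgeR). They are among the leading genes, which were chosen on day 14 values that enter these fits.

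By list with the block, 8 of 23 genes of the TREM2-dependent list rose in MdC6 and 0 fell, with a median of 0.92 (all genes 0.08), where 1.67% of all genes were called higher and 0.648% lower. Without the block the counts are far smaller: 1 of the 23 was called (Apoe), 0 of 9 complement genes, 1 of 19 lipid genes (Apoe), and of 15 classical monocyte genes 1, S100a4, which was lower. With the block, Csf1 rose by 2.66 and the lipoprotein lipase gene Lpl by 3.97. At day 2 MdC6 held 5.45 counts of Csf1 and 1.80 of Lpl in all. Both passed the low-count filter through day 14, so their calls, which enter the list counts given here, are not read as support. Lpl was uneven at day 14, at 322, 148, 110 and 7.78 CPM. With the block, of 9 complement genes 4 rose, with C1qa at 1.81, C1qc at 1.49, C1qb at 1.12 and Cfb at 2.00. Cfb was at 0, 48.7 and 20.4 CPM in MdC6 at day 2. It too passed the low-count filter through day 14, and its call is not read as support. Of 15 classical monocyte genes 8 fell, among them Chil3 (-2.36), S100a6 (-2.14), Fn1 (-2.01), Ccr2 (-1.47) and Plac8 (-1.28), and Ly6c2 rose by 1.75. Of 19 lipid genes 3 rose, Apoe, Apoc1 and Lpl. Of 7 MHC class II genes 0 were called, H2-Ab1 among them at 0.39 (edgeR with the block, adjusted p = 0.84). Of 17 interferon response genes Bst2 alone was called, at 1.10. The microglial markers showed no common direction between the days. In MdC6 they summed to 5185, 1587 and 681 CPM in replicates 1 to 3 of day 2. In replicates 1 to 4 of day 14 they summed to 3516, 2782, 2480 and 475 CPM, and their part in the result was not tested.

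The block also called Gal, which encodes the neuropeptide galanin and was picked out after its values were seen. It was at 39.0, 79.2, 102 and 75.3 CPM in MdC6 at day 14 and at 0 in all 3 libraries of day 2. The other monocyte-derived cells of day 14 held 1.10, 2.83, 0 and 0 CPM, and Mg3 was listed at 0 or near 0 in every library. Against a floor of 3 counts over the 170245 counts of day 2, the level at day 14 was at least 3.85-fold higher. Gal was called with the block (edgeR, adjusted p = 0.00111) and not without it. With 0 counts at day 2, Gal passed the low-count filter through its day 14 libraries alone, so this p-value is not read as support.

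The same comparison of days was made in all monocyte-derived cells and in those other than MdC6. The 15 leading genes were chosen for their ratio at day 14, from values that enter these fits. The signs of their estimates, their p-values and the number of them called are therefore not read as a result. In all monocyte-derived cells, 145 of 8080 genes were called (1.79%), 67 higher (0.829%) and 78 lower (0.965%) at day 14, and 5 of the 15 leading genes were among the higher: Igf1 (5.95 ± 0.63 SE, edgeR adjusted p = 0.00129), Atp6v0d2 (5.32), Csf1 (3.89), Gpnmb (1.87) and Gpx3 (1.79). Igf1 was at 4.79, 6.29, 1.38 and 0 CPM in all monocyte-derived cells at day 2 after stroke, so it passed the low-count filter through day 14. With the block, Timp2, Fblim1, Syngr1 and Pld3 were also called higher in all monocyte-derived cells. In the cells other than MdC6, 195 of 6329 genes were called without the block (3.08%), 107 higher (1.69%) and 88 lower (1.39%). Igf1, Atp6v0d2 and Csf1 were too low there to be tested, and of the other 12 leading genes Hebp1 was called, lower (-1.79, edgeR adjusted p = 0.024). The block called Fabp5 lower there too (-1.05, edgeR with the block, adjusted p = 0.048). In MdC6 alone Igf1 was the only one of the 15 called without the block. With the block, Gpnmb, Spp1, Csf1, Pld3, Trem2 and Gpx3 were called higher there too. The difference between these fits was not tested, and the fit of all cells contains both others. Of the genes called in all cells, 96 were also called in the cells other than MdC6 (66.2% of the former and 49.2% of the latter). The count of 195 was 102 and 78 without day 2 replicate 3 or 4, and 95, 111 and 60 without day 14 replicate 1, 2 or 4. The count of 145 was 84, 64 and 45 without day 2 replicate 1, 3 or 4, and 52, 75 and 76 without day 14 replicate 1, 2 or 4.

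**Figure D5:**
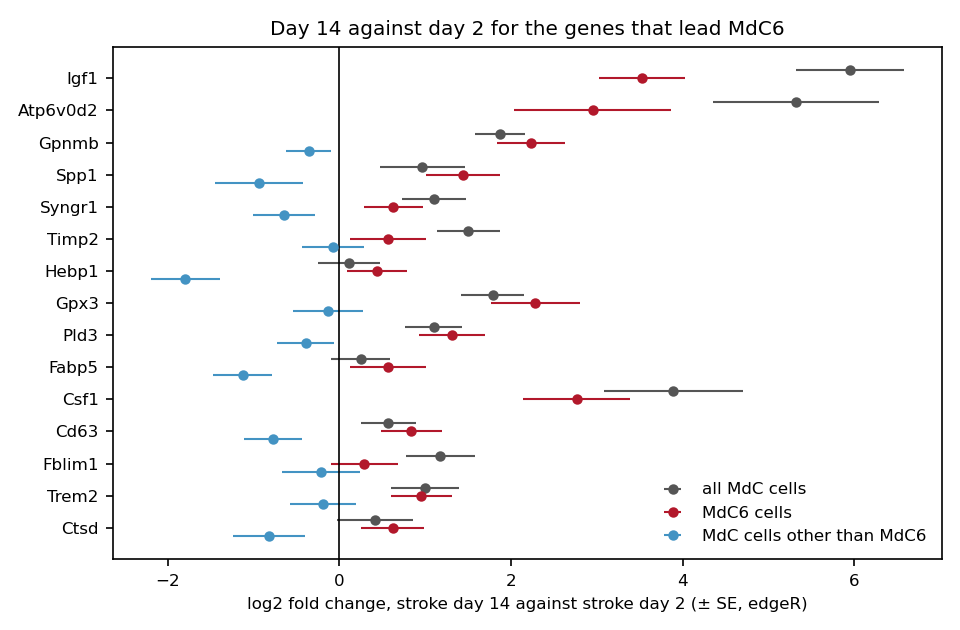
Log2 fold change of day 14 against day 2 after stroke (horizontal axis, ± SE, edgeR) of the 15 genes that lead MdC6 (vertical axis) in all monocyte-derived cells, in MdC6 and in the monocyte-derived cells other than MdC6. The genes were chosen on day 14 values that enter these fits, which favours the signs seen; Igf1, Atp6v0d2 and Csf1 have no point in the other cells, where they were too low to be tested.

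In the cells other than MdC6, 6 of 10 MHC class II genes rose from day 2 to day 14, where 1.69% of all genes were called higher. These cells are made of different subtypes on the 2 days: of all monocyte-derived cells, MdC1 made up a mean of 31.5% at day 2 and 1.91% at day 14, MdC2 28.9% and 3.73%, MdC4 12.5% and 24.8%, and MdC5, the subtype with the most H2-Ab1, 9.57% and 22.6%. Within MdC5, H2-Ab1 was at 5714 to 7134 CPM at day 2 and 7556 to 12030 CPM at day 14, and within MdC4 at means of 393 and 1445 CPM, given without a test; the part of the changed mix in the rise was not tested. In MdC6, 0 of 7 were called, where 0.0682% of all genes were called higher, so the 0 is near the background. In the cells other than MdC6, H2-Ab1 was at 753, 709, 1090 and 833 CPM at day 2 and at 3787, 3759, 5357 and 4701 CPM at day 14, a rise of 2.31 ± 0.53 (SE) on the log2 scale (edgeR, adjusted p = 0.0282). H2-Eb1 rose by 2.30 and H2-Aa by 2.21 (edgeR, adjusted p = 0.015 and 0.0225). In MdC6 these 3 genes had estimates of 0.33, 0.44 and 0.07, with adjusted p of 0.9993 for each (edgeR). The difference between MdC6 and the other cells in this change was not tested. With the block, 475 genes were called in the cells other than MdC6 (7.51%), 290 higher (4.58%) and 185 lower (2.92%). In all monocyte-derived cells it called 469 (5.80%), 260 higher (3.22%) and 209 lower (2.59%).

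Blood monocytes gave a level outside the brain for the genes that both sets of tables hold; the tables differ in their genes, so the values are set side by side without a test. In the 3 blood libraries of day 14 after stroke, Spp1 was at 0 CPM in monocytes, against 22760 to 43000 CPM in MdC6. Trem2 had a median of 50.2 CPM in blood (39.5 to 59.2) and Ctsd one of 139 CPM (103 to 152), both below every MdC6 library. The blood medians of Plac8 (3765 CPM) and Ccr2 (2470 CPM) lay within the range of the other monocyte-derived cells of the brain at day 14, those of S100a4 (2063 CPM) and Ifitm6 (1542 CPM) lay above it, and all 4 were above every MdC6 library. The class II medians in blood lay between both sets of brain cells, and the blood range of each of the 3 genes overlapped that of MdC6. H2-Ab1 had a median of 889 CPM in blood (428 to 988), H2-Aa 537 CPM (289 to 611) and H2-Eb1 287 CPM (144 to 331), against means of 335, 235 and 140 CPM in MdC6 and of 4401, 2925 and 2063 CPM in the other monocyte-derived cells. Ifitm1 was near 0 in blood (highest 17.96 CPM), against 10.2 CPM in MdC6, and Vcan was at 71.6 to 94.2 CPM in blood, against 0 to 1.14 CPM in MdC6. Igf1, Gpnmb, Atp6v0d2, Syngr1 and Fblim1 were not analysed in blood.

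MdC6 cells were also found in aged mice. At day 2 after stroke its share of monocyte-derived cells was 1.48%, 0.738% and 0.584% in the 3 aged libraries, a mean of 0.933% against 2.84% in the young, a difference that did not pass the exact permutation test (p = 0.4; 3 against 4 libraries cannot go below 0.0571). In the single aged library of day 14 the share was 14.9% (13 of 87 cells, 95% exact interval 8.20 to 24.2), below each young library of that day, with no replicate and a female pool against male pools. Its 13 MdC6 cells held 8489 counts. Igf1 had 5 of them and 0 of 48623 in the other monocyte-derived cells, Spp1 had 37 and 0, Trem2 8 and 0, and Ctsd 61 and 9. Plac8 had 5 and 331, Ccr2 0 and 79, and H2-Ab1 0 and 112. These counts point the same way as the young libraries for each of the 7 genes, and they come from 13 cells of 1 library.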

How the data were processed

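Expected counts per gene and cell were deposited in 1 table per library; they are fractional, and the step that made them so is not given in the sources used here; some entries are near 0. The submitters' processing notes name Seurat and mm10. The authors' metadata hold the cell codes, total counts and genes per cell and a percent of mitochondrial counts; these values were used as deposited. The tables of young brain hold 19704 genes, and those of aged brain and blood other sets, so no test of gene levels crosses them. Counts of near-identical genes (Lyz2 and Lyz1, Ly6c2 and Ly6c1, H2 genes) are uncertain.

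Every deposited cell was kept. The automatic threshold of Scrublet (scanpy 1.11.5) marked 0% to 0.15% of cells per brain library and was judged not to have worked, so the 5% of cells with the highest scores were left out as an alternative. Counts were summed per library and cell code, rounded, and tested by edgeR 4.0.16 (glmQLFit and glmQLFTest, R 4.3.3, TMM, filterByExpr) over the young brain groups with at least 20 such cells, adjusted by Benjamini-Hochberg over all genes tested, with an adjusted p under 0.05 called. MdC6 was not fitted in sham, which had 1 cell. Shares were compared by exact permutation. The fit was tested on simulated data. The labels number the libraries of a group without naming the animals of each pool, so p-values measure only the spread between these libraries, which may be in part technical.

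Pairing by replicate number was checked from the labels' numbers: deviations from the group means of same-numbered libraries of the 2 stroke groups correlated by 0.132, 0.428 and 0.529 over genes in MdC6, and by 0.267 to 0.754 in the other monocyte-derived cells, while differently numbered ones ranged from -0.422 to 0.238 and from -0.641 to 0.506; every same-numbered pair was above 0.1, so blocked values stand beside the results.

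Named genes were the 15 highest and 10 lowest by mean log2 ratio among those past 1 in every library of day 14, with a mean of at least 100 CPM in the higher cells, and, between days, called genes with at least 50 CPM and no overlap; predicted genes, pseudogenes and mitochondrial, ribosomal, haemoglobin, immunoglobulin and T cell receptor segment genes were not named, and 1 of the 10 lowest is not reported here. The members, gene lists and tests were chosen with earlier results of these data known. Of 495 genes in the 20 lists and the markers, 13 are not in the young brain tables. Alternatives were DESeq2 1.42.0, no low-count filter, no TMM, other pseudocounts, rounding up, thinning, each library left out, and, added after seeing the data, the set of mitochondrial ribosomal RNA and the rounding up of every entry above 0.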

Additional observations from a re-analysis of the deposited data

Results flagged for a closer look

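In 28 groups of 4 libraries, the value farthest from the others was set against the whole range of its group (Dixon's ratio at the 95% level), which chance passes in about 1 of 20 groups. The share of MdC6 among monocyte-derived cells in sham libraries stood apart in replicate 4, at 2.33% with the other libraries at 0%, and rests on 1 cell. The log2 ratio of MdC6 to the other monocyte-derived cells at day 14 stood apart for Syngr1 in replicate 3, at 2.87 with the other libraries at 2.46, 2.50 and 2.47. It stood apart for Hebp1 in replicate 1, at 2.18 with the others at 2.53 to 2.58.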

How the results depend on the processing

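The share of MdC6 at day 14 exceeded that of day 2 and of sham under all 5 other denominators, cell filters and count models tried; leaving out 1 library gave differences of 30.3 to 32.8 points against day 2 after stroke, 32.9 to 34.0 against sham, and 0.625 to 3.10 between day 2 after stroke and sham, and with 3 against 4 libraries the exact permutation test cannot go below 0.0571. The last difference passed the test as a share of all cells (1.47 points, adjusted exact permutation p = 0.0286) and in cells of at least 800 counts (2.49 points, adjusted exact permutation p = 0.0286). The share of all cells also follows the number of monocyte-derived cells. The filter of 800 counts left 4 to 66 monocyte-derived cells per sham library. The genes past the fold between MdC6 and the other cells numbered 203 higher with a pseudocount of 1 CPM and 42 higher and 151 lower with 50 CPM; without 1 library they were 124 to 152 higher and 364 to 377 lower. For MdC6 between days, the 3 called genes became 17 by DESeq2, 22 without a filter, 6 without TMM, 2 with counts rounded up, 1 without the highest doublet scores, 10 with the set of mitochondrial ribosomal RNA as a term, 68 with the replicate block, and 0 to 1 without 1 library. For the other monocyte-derived cells the 195 became 400 by DESeq2, 475 with the replicate block, 423 with the set as a term and 60 to 208 without 1 library. For all monocyte-derived cells the 145 became 386, 469, 348 and 45 to 191. With every entry above 0 rounded up, the counts were 2 in MdC6, 253 in the other cells (169 higher, 84 lower) and 196 in all, and 151 higher and 349 lower between MdC6 and the other cells. The cause of these changes was not tested, except that fewer libraries enter when 1 is left out. The replicate block changed no call on the shares. Of the log2 ratios of single named genes between MdC6 and the other cells under these alternatives, 274 moved by less than 1 SD of the libraries and 26 by more, and 0 changed sign. The pseudocounts of 1 and 50 CPM gave 3.91 and 2.48 for Igf1, 5.33 and 1.73 for Atp6v0d2, and -5.00 and -2.43 for Ifitm1. The planned term for a technical batch was not run, because the deposited run identifier is unique to each library. Depth limits the day 2 values of MdC6, which rest on 170245 counts in 3 libraries against 1872957 at day 14.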

Other observations

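H2-D1, H2-K1, H2-Q7 and H2-T23, which encode heavy chains of MHC class I, and B2m, its light chain, were picked out after their values were seen, from no fixed list. In MdC6 with the replicate block, H2-D1 was at 2597, 2156 and 2726 CPM at day 2 and at 4380, 4384, 5637 and 6627 CPM at day 14, a rise of 1.28 on the log2 scale (edgeR, adjusted p = 0.0069). H2-K1 rose by 1.21, B2m by 1.28, H2-Q7 by 2.50 and H2-T23 by 1.34 (edgeR, adjusted p = 0.0132, 0.00949, 0.00111 and 0.0433). The libraries of the 2 days overlapped for H2-T23 and for none of the other four, and none of the 5 was called without the block. The other monocyte-derived cells held more at day 14 too: H2-K1, H2-Q7 and H2-T23 rose there by 1.13, 2.63 and 1.21 without the block (edgeR, adjusted p = 0.0361, 0.00502 and 0.015). In the 3 libraries of day 2 and the 4 of day 14 the means there were 2147 and 3987 CPM for H2-D1 and 5225 and 8253 CPM for B2m, with estimates of 0.82 and 0.67 (edgeR, adjusted p = 0.123 and 0.286).

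Of 16 matrix and remodelling genes at day 14, 2 were higher past the fold in MdC6 than in the other monocyte-derived cells and 6 were lower. Mmp8, a collagenase best known from neutrophils, was at 75.7, 140, 99.2 and 68.5 CPM in MdC6 against 34.5, 22.6, 38.4 and 31.1 CPM, beside neutrophil markers that summed to 84.7 to 221 CPM and 68.2 to 128 CPM and include Mmp8; their part in the result was not tested. Fn1, which encodes fibronectin, was at 84.1 against 258 CPM, and the hyaluronan receptor Cd44 at 119 against 308 CPM. Of 13 iron and haem genes, 1 was higher, the metallothionein Mt1 (395 against 199 CPM), and 1 was lower, counts near the 2.27% of all genes that were higher and 6.31% that were lower. Arg1, an enzyme of alternatively activated macrophages, was at 89.0, 83.1, 684 and 176 CPM in MdC6 against 219, 159, 540 and 179 CPM, with the highest value of both in replicate 3.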
